A study of Saccharomyces cerevisiae with 44 samples.

Results

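The 10 genes described here encode the enzymes of purine synthesis in the budding yeast Saccharomyces cerevisiae that carry ADE names. They were chosen by systematic name from the count tables, which list 6692 features. In pathway order they are ADE4 (YMR300C), ADE5,7 (YGL234W), ADE8 (YDR408C), ADE6 (YGR061C), ADE2 (YOR128C), ADE1 (YAR015W), ADE13 (YLR359W), ADE16 (YLR028C), ADE17 (YMR120C) and ADE12 (YNL220W). All 10 passed the filter on low counts, which kept 6344 features. None of them overlaps another feature or has a near-identical copy in the tables. ADE3, a folate enzyme, is described with the one-carbon genes.

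Purine nucleotides are built step by step on an activated ribose, PRPP, and the first complete purine is IMP, from which AMP and GMP are made by separate branches. Yeast cells can also take up adenine, and adenine in the medium is known to keep the ADE genes low. The transcription factors Bas1 and Pho2 activate these genes together, and the pathway intermediates SAICAR and AICAR are known to promote their interaction. A pair of steps in the pathway transfers a formyl group from a folate, one by Ade8 and one by Ade16 or Ade17.

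RNA was sequenced from asynchronous wild-type cultures of strain W303 grown in 11 groups. The groups C0 (water), HU (50 mM), MMS (0.002%), CC (1 N NaOH) and CPT (100 µg/mL) grew in YEPD, a rich medium. C0 is the vehicle of both HU and MMS, and CC that of CPT. The groups CA (2% acetone), AD (50 µg/mL), CD (water), DOX (25 µg/mL), CM (0.1 N NaOH) and MTX (150 µg/mL) grew in SC, a synthetic medium. There CA is the vehicle of AD, CD of DOX and CM of MTX. In the field HU, MMS, CPT, DOX and MTX usually stand for hydroxyurea, methyl methanesulfonate, camptothecin, doxorubicin and methotrexate, while the labels hold the abbreviations only and AD was not expanded. Each group had 2 independent cultures with 2 technical replicates each, 44 libraries in all. W303 strains commonly carry ade2-1, a nonsense allele that makes them need adenine. The labels do not give the ADE2 allele of this strain or the adenine content of the media, so neither was tested.

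Libraries held 6.82 to 15.08 M counts and cultures 16.73 to 28.8 M. Both DOX cultures, at 16.73 and 16.98 M, were the least deep of the 22. Levels are CPM, each library's counts scaled to the same total, after TMM scaling, and a gene is said to rise or fall where the quasi-likelihood test of edgeR gave an adjusted p under 0.05 over the 6344 genes. CPM are shares of a library, so that more RNA of a gene and less RNA of the others cannot be told apart. Technical replicates of a member differed by a median of 0.06 to 0.14 on the log2 scale and by at most 0.48.

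The stretches before the start codons are shown first, because Bas1 is a known activator of these genes. Of the 10 genes, 8 have the letters TGACTC, the known core of the Bas1 site, on one strand or the other within 300 bases before the start codon (80.0%). Over all protein-coding genes 464 of 5978 such windows hold it (7.8%), and 0.7% hold it at least 2 times against 4 of the 10 members. The motif stands at -217 and -184 in ADE5,7, at -181 and -167 in ADE8, at -196 and -153 in ADE2, and at -226 and -217 in ADE1, counted from the base before the start codon as -1 to the motif's first base. A single copy stands at -276 in ADE6, at -216 in ADE13, at -177 in ADE17 and at -222 in ADE12. The window of ADE13 alone holds bases of other features, 88 in all in YLR357W and YLR358C. Whether its motif lies within them was not examined. On the strand opposite to the gene lie the copy at -226 of ADE1 and those of ADE13 and ADE12. The copy of ADE12 is extended to TGACTCA, the letters bound by the activator Gcn4, and it is the 1 match to these letters among the 10 windows. ADE4 and ADE16 have no match, which says only that these letters are not in their windows. The bases from -300 to -121 are printed 5′ to 3′ on the strand of the gene, from the RefSeq R64 genome, whose coordinates are those of sacCer3, with TGACTC or its reverse complement GAGTCA in capitals. They were picked after the MTX values, described below, were seen. They are those of the 4 members that rose most in MTX, of both members without the motif, ADE4, which rose in MTX, and ADE16, which did not, and of ADE8, which has 2 copies and did not pass the test there. Motif and edgeR call therefore did not go together in ADE4 and ADE8. Both lay near the threshold in MTX, with edgeR adjusted p of 0.0393 in ADE4 and 0.0802 in ADE8. DESeq2 called both, and the part of the motif in these changes was not tested. The stretches are chrXIII:509401-509580 (minus strand) for ADE17, chrI:169075-169254 (plus) for ADE1, chrXII:843982-844161 (plus) for ADE13, chrVII:56182-56361 (plus) for ADE5,7, chrXIII:867212-867391 (minus) for ADE4, chrIV:1288980-1289159 (minus) for ADE8 and chrXII:201436-201615 (minus) for ADE16.
ADE17: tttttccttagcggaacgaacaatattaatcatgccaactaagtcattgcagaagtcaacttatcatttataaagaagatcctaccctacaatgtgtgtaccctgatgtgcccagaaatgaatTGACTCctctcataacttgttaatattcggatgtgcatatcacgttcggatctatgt
ADE1: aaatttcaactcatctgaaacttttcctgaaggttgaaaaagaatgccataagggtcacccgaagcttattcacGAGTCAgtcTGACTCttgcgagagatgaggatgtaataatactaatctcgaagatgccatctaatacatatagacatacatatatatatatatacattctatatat
ADE13: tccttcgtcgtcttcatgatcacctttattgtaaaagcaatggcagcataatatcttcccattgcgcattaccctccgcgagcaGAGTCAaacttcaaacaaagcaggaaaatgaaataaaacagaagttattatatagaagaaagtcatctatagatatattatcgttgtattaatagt
ADE5,7: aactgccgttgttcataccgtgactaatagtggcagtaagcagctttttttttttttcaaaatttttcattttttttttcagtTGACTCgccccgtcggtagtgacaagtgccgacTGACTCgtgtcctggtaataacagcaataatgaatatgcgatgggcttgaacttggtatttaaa
ADE4: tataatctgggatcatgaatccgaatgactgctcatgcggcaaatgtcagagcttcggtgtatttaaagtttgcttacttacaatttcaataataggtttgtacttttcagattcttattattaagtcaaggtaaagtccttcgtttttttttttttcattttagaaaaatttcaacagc
ADE8: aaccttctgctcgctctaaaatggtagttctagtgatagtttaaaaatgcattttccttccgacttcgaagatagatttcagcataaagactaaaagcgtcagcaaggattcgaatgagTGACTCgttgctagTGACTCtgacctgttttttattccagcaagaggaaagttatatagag
ADE16: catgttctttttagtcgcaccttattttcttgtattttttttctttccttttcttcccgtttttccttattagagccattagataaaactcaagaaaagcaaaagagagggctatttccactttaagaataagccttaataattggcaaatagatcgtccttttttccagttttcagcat

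**Figure D1:**
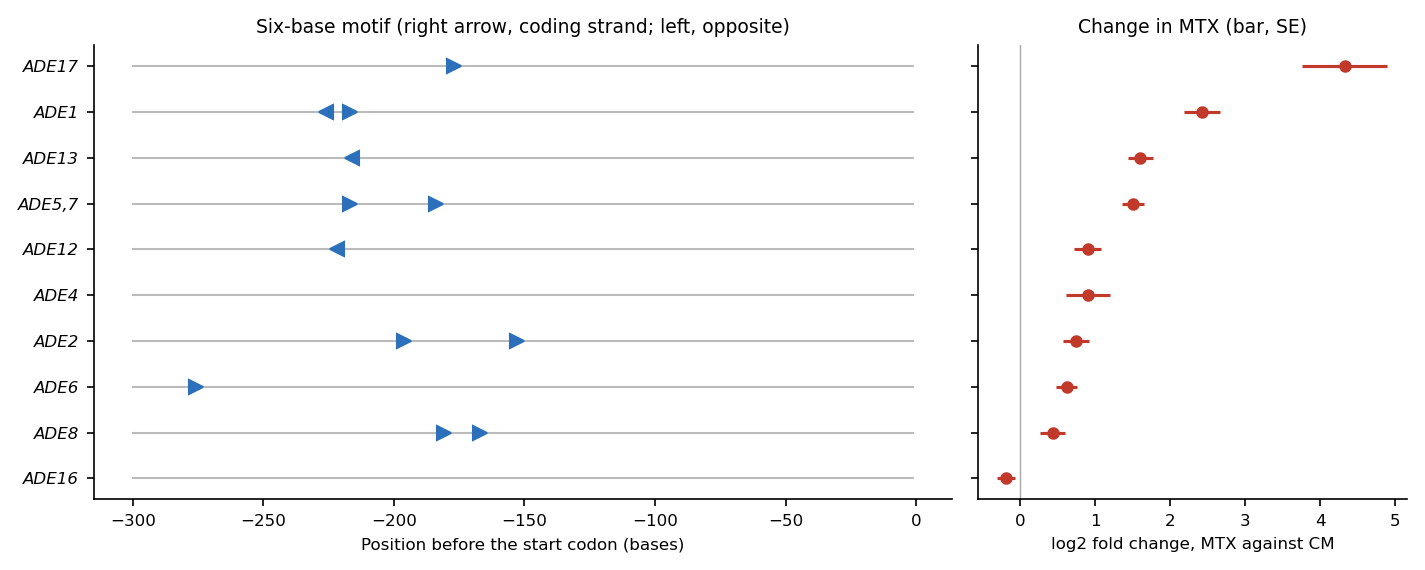
Left, position of the 6-base motif in the 300 bases before each start codon, with right-pointing triangles on the coding strand and left-pointing ones on the opposite strand. Right, log2 fold change of the same gene in MTX against CM with its SE (2 cultures per group), ordered from 4.33 in ADE17 to -0.19 in ADE16.

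In the vehicle cultures the members were expressed at unequal levels. Per kilobase of coding length over the 10 vehicle cultures, ADE16 was highest, with a median of 366 CPM per kb and a range of 334 to 405. It was followed by ADE6 (median 271) and ADE13 (median 250), and then by ADE5,7 (168), ADE12 (166), ADE4 (156), ADE1 (134) and ADE8 (124). Each neighbouring pair in this order had overlapping ranges. ADE2 and ADE17 were the lowest, with medians of 38.8 and 36.5 CPM per kb and ranges of 33.8 to 52.3 and 17.8 to 60.1. Neither range reached the lowest vehicle value of any other member, which was 80.9 CPM per kb in ADE1.

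**Figure D2:**
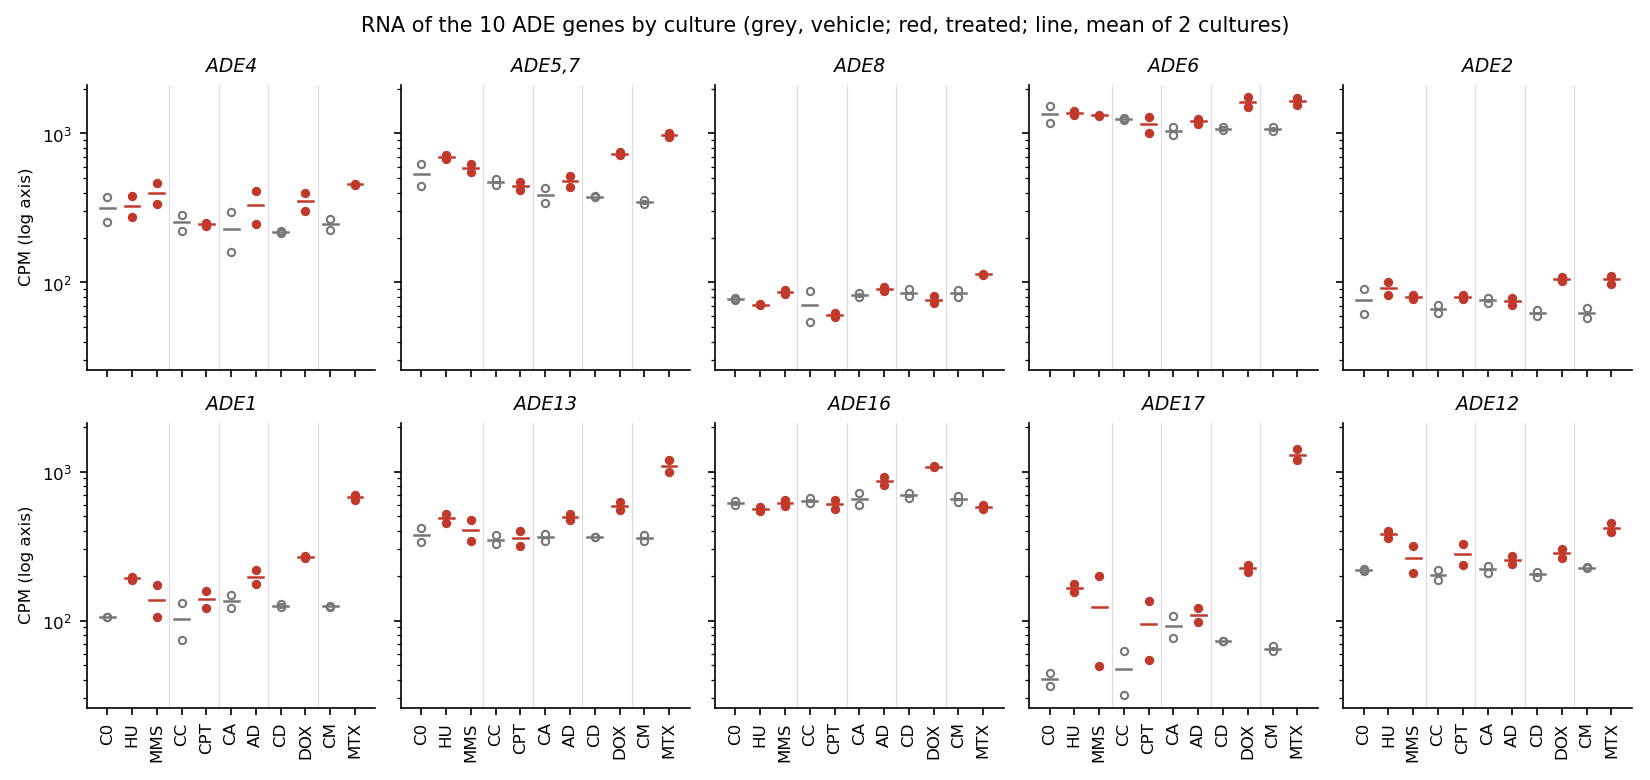
Level of each of the 10 genes in CPM (log axis) in all 22 cultures, with open grey circles for vehicles, filled red circles for treated cultures and a line at the mean of each group's 2 cultures. ADE17 spans 31.7 to 1413 CPM over all cultures and ADE16 543 to 1084 CPM.

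MTX against CM gave the largest median change of the members among the 6 treatments. MTX is the usual abbreviation of an antifolate. Of the 10 members 8 rose and none fell, where 19.8% of all genes tested were called. The median log2 fold change of the members was 0.9, beside -0.03 over all genes. The summed level of the 10 genes was 7356 ± 580 CPM (SD, n = 2) in MTX and 3238 ± 140 CPM in CM. In 9 members both MTX cultures lay above both CM cultures, and in ADE16 both lay below. The share of all genes with such separation was not counted, here or in the other comparisons, so separation is a description only.

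The largest rises were those of ADE17, ADE1 and ADE13, which act in the last steps to IMP. ADE17, 1 of 2 genes for the enzyme that closes the purine ring (AICAR transformylase and IMP cyclohydrolase; sacCer3 chromosome XIII, 507502 to 509280), stood at 62.5 and 67.1 CPM in the CM cultures and at 1413 and 1190 CPM in the MTX cultures. The groups were far apart, and the log2 fold change was 4.33 (SE 0.57; edgeR adjusted p = 0.000232), or 20.1-fold. ADE1, which makes SAICAR (chromosome I, 169375 to 170295), stood at 126 and 124 CPM in CM and at 693 and 649 CPM in MTX, so that it changed by 2.42 on the log2 scale (SE 0.24; edgeR adjusted p = 1.26e-05). ADE13, adenylosuccinate lyase, which acts both in making AICAR and in making AMP (chromosome XII, 844282 to 845730), stood at 344 and 373 CPM in CM and at 1192 and 988 CPM in MTX. Its log2 fold change was 1.6 (SE 0.17; edgeR adjusted p = 1.58e-05). ADE16, the other gene for the ring-closing enzyme (chromosome XII, 199540 to 201315), did not follow them. It stood at 622 and 687 CPM in CM and at 592 and 560 CPM in MTX, which is a change of -0.19 on the log2 scale (SE 0.12; edgeR adjusted p = 0.282).

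At the start of the pathway ADE4, the amidotransferase that commits PRPP to purines (chromosome XIII, 865559 to 867091), stood at 224 and 266 CPM in CM and at 461 and 453 CPM in MTX. The log2 fold change was 0.9 (SE 0.29; edgeR adjusted p = 0.0393), and the call was lost when any 1 of the 4 cultures was left out (adjusted p of 0.105 to 0.198). ADE5,7, which encodes 1 protein for a pair of separate steps (chromosome VII, 56482 to 58890), stood at 336 and 356 CPM in CM and at 1004 and 949 CPM in MTX. The change of 1.5 on the log2 scale (SE 0.15; edgeR adjusted p = 1.33e-05) was the largest from ADE4 to ADE2. ADE8, the first of the formyl-transferring enzymes (chromosome IV, 1288215 to 1288859), stood at 88.5 and 80.3 CPM in CM and at 113 and 114 CPM in MTX. Both MTX cultures were higher, and the log2 fold change of 0.43 (SE 0.17) did not pass the test (edgeR adjusted p = 0.0802). ADE6, which makes FGAM (chromosome VII, 611889 to 615965), stood at 1043 and 1099 CPM in CM and at 1735 and 1556 CPM in MTX, so that it changed by 0.62 on the log2 scale (SE 0.14; edgeR adjusted p = 0.0051).

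ADE2, AIR carboxylase (chromosome XV, 564476 to 566191), stood at 67.7 and 58 CPM in CM and at 111 and 98.3 CPM in MTX. Its log2 fold change was 0.74 (SE 0.17; edgeR adjusted p = 0.00552), and the call was lost without CM culture 2 or without MTX culture 1 (adjusted p of up to 0.0727). These counts do not tell which ADE2 allele the RNA came from. ADE12, adenylosuccinate synthetase, which opens the branch from IMP to AMP (chromosome XIV, 234413 to 235714), stood at 225 and 227 CPM in CM and at 452 and 390 CPM in MTX (log2 fold change 0.9, SE 0.18; edgeR adjusted p = 0.00272). The calls of ADE5,7, ADE6, ADE1, ADE13, ADE17 and ADE12 held whichever of the 4 cultures was left out.

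**Figure D3:**
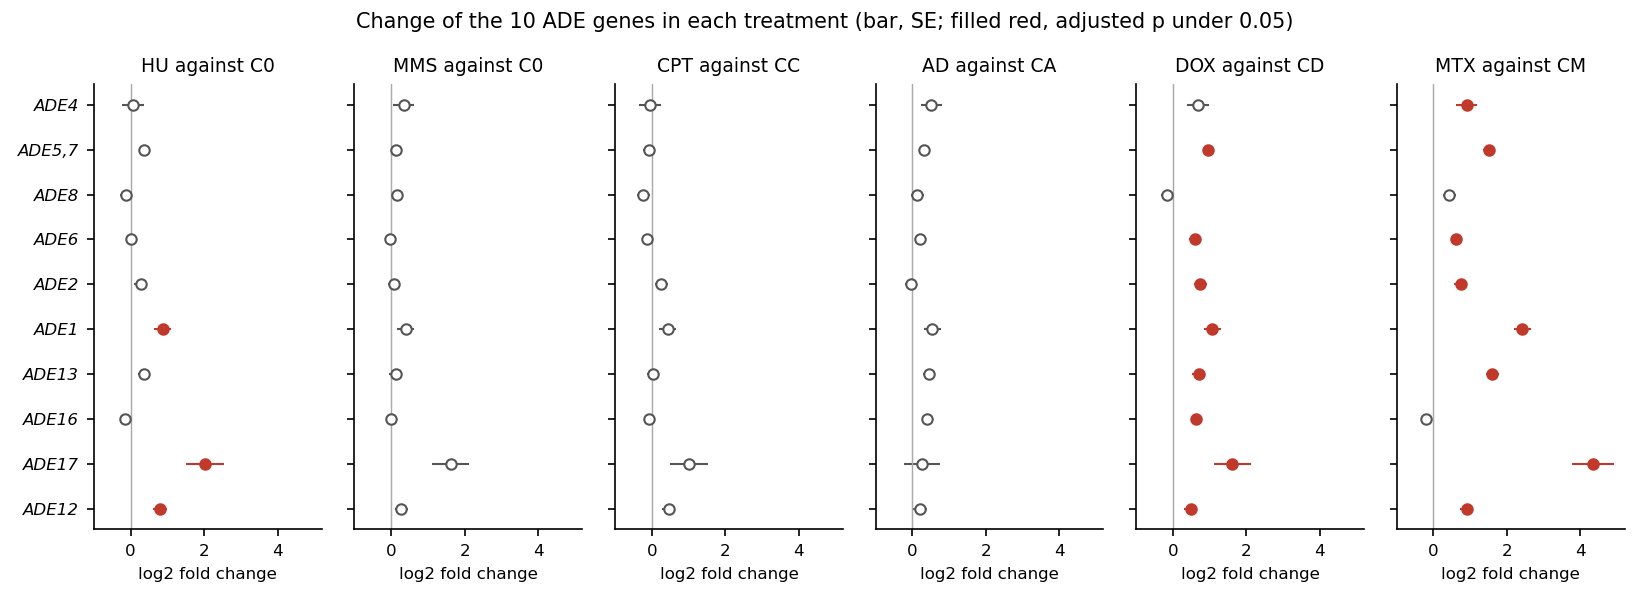
Log2 fold change of the 10 genes in each treatment against its own vehicle, with bars for the SE (2 cultures per group) and filled red points for an adjusted p under 0.05. The number of filled points is 3 in HU, 0 in MMS, CPT and AD, and 8 in DOX and in MTX, and ADE17 in MTX lies farthest out at 4.33.

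In DOX against CD 8 of the 10 members also rose and none fell, but here 41.2% of all genes tested were called, 21.0% as higher. The median log2 fold change of the members was 0.69, beside -0.02 over all genes. ADE17 stood at 72.6 and 73.2 CPM in CD and at 213 and 236 CPM in DOX, so that it changed by 1.62 on the log2 scale (SE 0.51; edgeR adjusted p = 0.0207). ADE1 stood at 129 and 123 CPM in CD and at 261 and 270 CPM in DOX, and its log2 fold change was 1.07 (SE 0.23; edgeR adjusted p = 0.00183). ADE16 rose too, unlike in MTX, from 668 and 720 CPM in CD to 1084 and 1077 CPM in DOX, the highest level of ADE16 in any group (log2 fold change 0.64, SE 0.12; edgeR adjusted p = 0.00051). In these 3 genes the DOX and CD cultures did not overlap.

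Among the other enzymes ADE5,7 rose by 0.96 (SE 0.15), ADE2 by 0.75 (SE 0.17), ADE13 by 0.7 (SE 0.17), ADE6 by 0.59 (SE 0.14) and ADE12 by 0.48 (SE 0.18) on the log2 scale in DOX. ADE4, at 216 and 220 CPM in CD and 397 and 302 CPM in DOX, had a log2 fold change of 0.68 (SE 0.29) that did not pass the test (edgeR adjusted p = 0.0706). ADE8 was at -0.16 (SE 0.17; edgeR adjusted p = 0.473), with overlapping cultures. The calls of ADE17 (adjusted p of 0.0528 to 0.102) and ADE12 (0.0584 to 0.226) were lost when any 1 of the 4 cultures was left out. The lower depth of the DOX cultures goes along with these values, and its part in them was not tested.

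In HU against C0 3 members rose and none fell, where 3.56% of all genes were called. HU is the usual abbreviation of an inhibitor of ribonucleotide reductase, which turns purine and pyrimidine ribonucleotides into the precursors of DNA. ADE17 stood at 36.3 and 44.4 CPM in C0, its lowest group mean, and at 155 and 175 CPM in HU. The log2 fold change was 2.03 (SE 0.52; edgeR adjusted p = 0.0459). ADE1 stood at 106 and 105 CPM in C0 and at 197 and 188 CPM in HU. Its log2 fold change was 0.87 (SE 0.23), with an edgeR adjusted p that rounds to 0.05 and lies just below it. ADE12 stood at 214 and 221 CPM in C0 and at 356 and 400 CPM in HU, so that it changed by 0.8 on the log2 scale (SE 0.18; edgeR adjusted p = 0.0173).

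The 3 genes had separate groups, and all 3 calls were nevertheless lost when any 1 of the 4 cultures was left out, with adjusted p of 0.137 to 0.19 in ADE17, 0.169 to 0.234 in ADE1 and 0.0541 to 0.154 in ADE12. DESeq2, a replicate block and a fit to the compared groups alone each called all 3 with all cultures kept. Without the filter on low counts ADE1 was not called (edgeR adjusted p = 0.0515). Among the early enzymes the log2 fold changes were 0.06 (SE 0.29) in ADE4, -0.13 (SE 0.17) in ADE8 and 0.01 (SE 0.14) in ADE6, none past the test. ADE2 was at 0.27 (SE 0.17), with overlapping cultures, and did not pass either (edgeR adjusted p = 0.452). ADE5,7 and ADE13 were each at 0.37 with both HU cultures above both C0 cultures, and did not pass the test (edgeR adjusted p = 0.219 and 0.285). ADE16 was at -0.15 (SE 0.12).

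No member was called in MMS against C0 (10.8% of all genes called), in CPT against CC (2.81%) or in AD against CA (3.14%) by edgeR. At an unadjusted p under 0.05 there were 1, 1 and 4 members, beside 1562, 985 and 1240 of the 6344 genes. DESeq2 called 1, 0 and 1 members, beside 884, 317 and 430 genes. HU and MMS share the C0 cultures. In MMS ADE17 stood at 49.3 CPM in culture 1 and 199 CPM in culture 2, against 36.3 and 44.4 CPM in C0. Both were higher, and the log2 fold change of 1.62 (SE 0.51) had an edgeR adjusted p of 0.0591. The value rested on MMS culture 2. Without that culture the log2 fold change was 0.29, and without MMS culture 1 it was 2.3 and was called by edgeR. DESeq2 called it with all cultures.

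The cultures of MMS disagreed on ADE17 by 2.01 on the log2 scale, a larger difference than that of 99.9% of genes. Technical replicates lay close together. Scaled to library totals alone, ADE17 was at 42.9 and 52.5 CPM in the libraries of culture 1 and at 187 and 207 CPM in those of culture 2. ADE1, at 105 and 172 CPM, and ADE12, at 210 and 315 CPM, were likewise higher in culture 2 of MMS, while ADE16, at 589 and 648 CPM, differed by 0.14 on the log2 scale. Culture 2 was also the higher for ADE17 in every other group but MTX, by 0.01 in CD to 1.33 in CPT on the log2 scale. ADE17 stood at 31.7 and 62.9 CPM in the cultures of CC and at 54.3 and 136 CPM in those of CPT. The CPT and CC ranges overlapped, and the log2 fold change was 1.01 (SE 0.51; edgeR adjusted p = 0.371), with 0.2 to 1.59 when 1 of the 4 cultures was left out. ADE12 in CPT was at 0.46 (SE 0.18; edgeR adjusted p = 0.201), and edgeR called it with a replicate block alone.

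In AD the largest log2 fold changes were 0.54 (SE 0.23) in ADE1, 0.52 (SE 0.29) in ADE4, 0.46 (SE 0.17) in ADE13 and 0.41 (SE 0.12) in ADE16. Of these ADE16, at 716 and 593 CPM in CA and at 922 and 815 CPM in AD, came nearest to the threshold (edgeR adjusted p = 0.0659). With a replicate block edgeR called all of these genes, and the share of all genes called with that block is not given here. ADE17 was at 0.26 (SE 0.5), with 75.9 and 107 CPM in CA and 97.5 and 121 CPM in AD, so that the groups overlapped. ADE4 varied between cultures in both groups, at 161 and 298 CPM in CA and at 247 and 411 CPM in AD. Culture 2 was the higher in both, by 0.89 and 0.73 on the log2 scale, and the log2 fold change of ADE4 ran from 0.11 to 1.03 when 1 of the 4 cultures was left out.

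The authors' deposited tables of treatment against vehicle gave ADE17 log2 fold changes of 4.35 in MTX, 2.04 in HU, 1.63 in DOX, 1.63 in MMS, 0.99 in CPT and 0.24 in AD. At an adjusted p under 0.05 the authors' deposited tables held 9 members in MTX, 9 in DOX, 5 in HU, 3 in AD, 1 in MMS and 1 in CPT, all higher in the treated cultures. Over all genes the authors' deposited tables held 2489 in MTX, 3874 in DOX, 1118 in HU, 1120 in AD, 1900 in MMS and 735 in CPT at that threshold, beside 1259, 2615, 226, 199, 683 and 178 here. How technical replicates entered those tables is unknown here.

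The vehicles, which differ in medium or solvent, were compared with each other. In CD against C0, which are water in SC and in YEPD, 1 member fell where 20.1% of all genes were called. It was ADE5,7, at 446 and 622 CPM in C0 and at 379 and 375 CPM in CD (log2 fold change -0.5, SE 0.15; edgeR adjusted p = 0.0286). Without C0 culture 2 the log2 fold change was -0.24 and the call was lost (adjusted p = 0.4). Without either CD culture it stayed at -0.49, and the call was also lost (0.118 and 0.163). A fit to the compared groups alone gave an adjusted p of 0.0504. Without C0 culture 1 it held at -0.72, and ADE6 was called as well. ADE17 had the largest size in the other direction, 0.86 (SE 0.51; edgeR adjusted p = 0.24), and its CD cultures lay above its C0 cultures. No member was called in CC against C0, where edgeR called 0.221% of all genes. There 1085 genes had an unadjusted p under 0.05, and DESeq2 called 221. No member was called in CA against CD or in CM against CD either, with 0.0% of genes in both by edgeR. These held 209 and 201 genes at an unadjusted p under 0.05, and DESeq2 called 1 and 0. In these comparisons of vehicles within a medium, the members' log2 fold changes ranged from -0.31 in ADE4 (CC against C0) to 0.33 in ADE17 (CA against CD).

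Whether the members responded unequally to different agents was tested as the difference between log2 fold changes, each against its own vehicle. MTX and DOX were both given in SC, with different vehicles and doses. Of the members 3 rose more in MTX than in DOX and 1 less, where 21.3% of all genes were called. ADE17 differed by 2.71 (SE 0.72; edgeR adjusted p = 0.0159), ADE1 by 1.35 (SE 0.33), ADE13 by 0.9 (SE 0.24) and ADE16 by -0.82 (SE 0.17; edgeR adjusted p = 0.00243). Of the early enzymes ADE5,7, at 0.54 (SE 0.21; edgeR adjusted p = 0.0794), and ADE8, at 0.59 (SE 0.24; edgeR adjusted p = 0.0877), came nearest to the threshold. The call of ADE17 was lost without DOX culture 1, CM culture 1 or CM culture 2 (adjusted p of up to 0.0596), and that of ADE13 without MTX culture 1 (0.0569).

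Between MTX and AD, also both in SC with different vehicles and doses, 5 members differed, where 8.29% of all genes were called. ADE17 differed by 4.07 (SE 0.73; edgeR adjusted p = 0.00524), ADE1 by 1.88 (SE 0.33), ADE5,7 by 1.18 (SE 0.21), ADE13 by 1.15 (SE 0.24) and ADE16 by -0.59 (SE 0.17; edgeR adjusted p = 0.0371). All but ADE16 were called whichever culture was left out. The call of ADE16 was lost without any culture but CA culture 1 (adjusted p of up to 0.151). It was also lost with RLE size factors (0.0541) and in a fit to the compared groups alone (0.126).

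MTX and HU differed in medium, vehicle and dose, so that the agent and these cannot be told apart. Here 3 members rose more in MTX, where 0.599% of all genes were called. They were ADE1 by 1.55 (SE 0.33), ADE13 by 1.23 (SE 0.24) and ADE5,7 by 1.12 (SE 0.21; edgeR adjusted p = 0.0205 in the last 2 and 0.0402 in ADE1). ADE17, at 2.3 (SE 0.72), did not pass (edgeR adjusted p = 0.235). It was called in 2 of 13 alternatives, the replicate block and the fit to the compared groups alone. Its difference ran from 2.17 to 2.44 over the alternatives. The call of ADE1 was lost without any 1 of the 8 cultures (adjusted p of 0.0969 to 0.189), and those of ADE5,7 and ADE13 were lost in 7 of 8 such fits, reaching 0.114 and 0.13. No member differed between HU and MMS (4.52% of all genes), HU and CPT (0.0%; 151 genes at an unadjusted p under 0.05, and 3 by DESeq2), MMS and CPT (2.14%) or DOX and AD (5.28%). At an unadjusted p under 0.05 these 4 held 1, 1, 0 and 2 members, and DESeq2 called 2 in the last and 0 in the others. Without MMS culture 2 edgeR called ADE12 between HU and MMS, and without CA culture 1 it called ADE5,7 between DOX and AD.

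ADE16 and ADE17 encode isozymes of the last steps to IMP, and their coding sequences share 1329 of 1776 aligned bases (74.8%), with no identical run longer than 19 bases. Per kilobase, ADE17 supplied 6.1% ± 0.537 (SD, n = 2) of the pair's RNA in C0, 9.5% ± 0.41 in CD and 9% ± 0.163 in CM. Its share was 22.8% ± 0.778 in HU and 17.1% ± 1.06 in DOX. In MTX it was 69.2% ± 1.7, with 70.4% and 68% in the cultures, and this was the 1 group in which ADE17 was above ADE16. In MMS the cultures differed, at 7.71% and 23.4%. In AD, with 11.2% ± 2.37 against 12.4% ± 4.05 in CA, the summed level of the pair was 550 ± 33.2 CPM per kb against 420 ± 36.8, and ADE16 alone was at 489 ± 42.7 against 369 ± 49.1. The pair's sum was 1056 ± 102 CPM per kb in MTX against 406 ± 27.6 in CM.

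**Figure D4:**
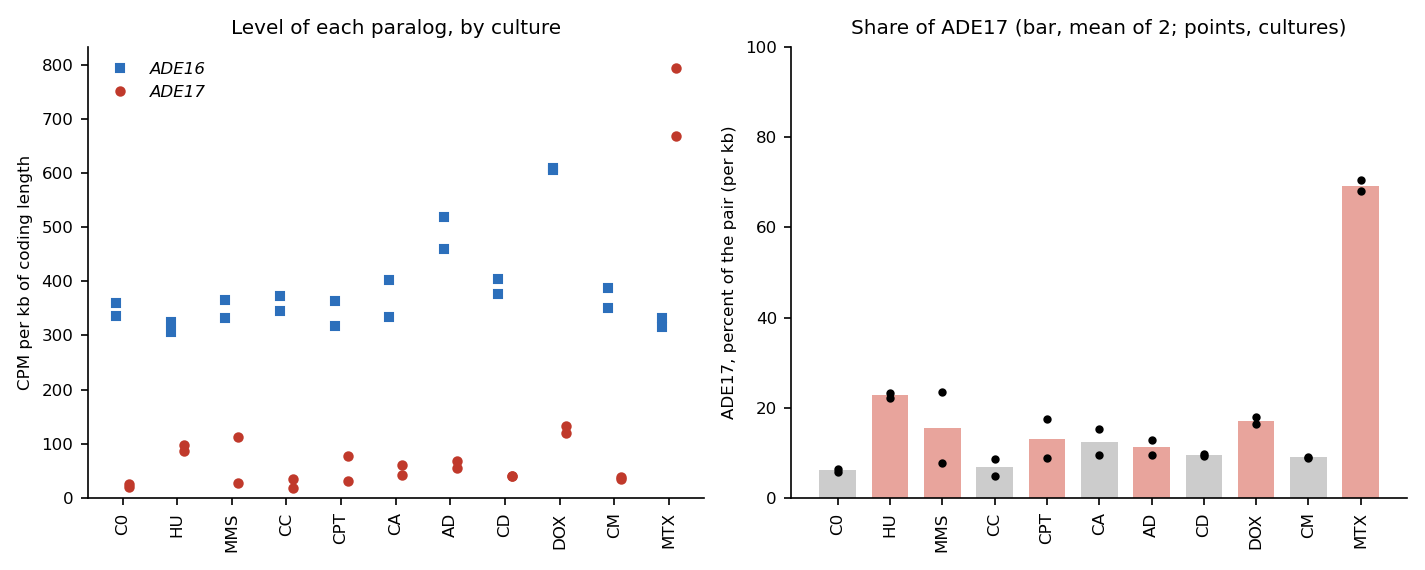
Left, level of ADE16 (blue squares) and ADE17 (red circles) in CPM per kb of coding length in each culture. Right, ADE17 as a percent of the pair, with bars for the mean of 2 cultures (grey, vehicle; pink, treated) and points for the cultures, from 6.1% in C0 to 69.2% in MTX.

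ADE17 ordered the 11 groups from C0 at 40.3 ± 5.74 CPM (SD, n = 2) through CC (47.3), CM (64.8), CD (72.9), CA (91.5), CPT (95.3), AD (109), MMS (124) and HU (165) to DOX at 224 ± 16 and MTX at 1301 ± 158 CPM. Neighbours overlapped from C0 to CM and from CA to HU. CM and CD, CD and CA, HU and DOX, and DOX and MTX did not. ADE1 followed ADE17 closely over the 22 cultures (Pearson r 0.98 on log CPM, and 0.93 over the 20 cultures without MTX), and so did ADE13 (0.95 and 0.84). ADE16 did not follow ADE17 (0.06 and 0.48). ADE5,7 and ADE6, of the early steps, went together (0.93 and 0.92). These values describe cultures that share groups and media and carry no test.

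The genes that feed or drain the pathway were followed as 6 lists with 39 genes in all, and all 39 passed the filter. Their counts stand beside the shares of all genes tested that edgeR called. These were 41.2% in DOX, 19.8% in MTX, 10.8% in MMS, 3.56% in HU, 3.14% in AD and 2.81% in CPT. PRPP synthesis comes first, with the PRS1 to PRS5 genes of PRPP synthetase. None of the 5 rose or fell in any treatment by edgeR or DESeq2, 1 had an unadjusted p under 0.05 (in AD), and their median log2 fold change lay between -0.16 in MTX and 0.24 in AD. In the list of one-carbon supply, which makes the folates that carry formyl groups, 3 of 8 genes rose and 1 fell in MTX (median 0.66). MTD1, methylenetetrahydrofolate dehydrogenase of the cytosol, went up from 33.2 ± 2.95 CPM in CM to 216 ± 0.492 CPM in MTX (log2 2.7, SE 0.23; edgeR adjusted p = 2.97e-06). SHM2, the cytosolic serine hydroxymethyltransferase, rose from 110 ± 6.07 to 450 ± 39.3 CPM (2.04, SE 0.35). ADE3, the cytosolic C1-tetrahydrofolate synthase, named to complete the count after its values were seen, rose by 0.85 (SE 0.15). The mitochondrial counterpart MIS1 fell from 1116 ± 1.74 to 643 ± 23.7 CPM, by 0.79 on the log2 scale (SE 0.13).

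In DOX 3 of the 8 one-carbon genes rose and none fell, where 41.2% of all genes tested were called, 21.0% as higher. The 3 were SHM1, the mitochondrial serine hydroxymethyltransferase, at 0.59 (SE 0.13), MTD1 at 0.98 (SE 0.22) and ADE3 at 0.6 (SE 0.15). MTD1 was also the 1 gene of the list that rose in HU, at 1.13 (SE 0.22; edgeR adjusted p = 0.00833), and in MMS, at 0.76 (SE 0.22; edgeR adjusted p = 0.0351). In CPT MIS1 fell by 0.53 (SE 0.13; edgeR adjusted p = 0.028), the 1 called gene of all 6 lists there. In AD no one-carbon gene was called by edgeR or DESeq2, and 2 had an unadjusted p under 0.05.

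On the branch from IMP to GMP, 1 of 4 genes fell in MTX. It was IMD4, an IMP dehydrogenase, from 535 ± 40.5 to 293 ± 20 CPM, a log2 fold change of -0.87 (SE 0.2). In AD 2 of 4 fell, IMD3 by 0.73 on the log2 scale (SE 0.15; edgeR adjusted p = 0.0166) and IMD2 by 1.33 (SE 0.24), and IMD2 is uncertain since it has a near-identical copy in the tables. In DOX GUA1, the GMP synthase, rose by 0.44 (SE 0.14) and IMD3 fell by 0.43 (SE 0.15). No gene of this branch was called in HU, MMS or CPT by edgeR or DESeq2, with 1, 0 and 1 at an unadjusted p under 0.05.

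Of 13 genes of purine salvage and uptake, 2 rose and 6 fell in DOX (median -0.32), where 41.2% of all genes tested were called. The smallest p-values were those of AAH1, adenine deaminase, which fell from 215 ± 5.06 to 85.6 ± 8.73 CPM (log2 fold change -1.33, SE 0.18), HPT1, which salvages hypoxanthine and guanine (-1.09, SE 0.18), and APT1, which salvages adenine (-0.79, SE 0.17). In MTX 1 of 13 fell, and it was again AAH1 (-0.9, SE 0.18; edgeR adjusted p = 0.00277), while the list's median was 0.0. PNP1, purine nucleoside phosphorylase, was the 1 called gene of the list in MMS (-0.54, SE 0.16), and edgeR called none in HU, CPT or AD, where 1, 1 and 4 had an unadjusted p under 0.05 and DESeq2 called 0, 1 and 0.

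Histidine synthesis releases AICAR, which is also an intermediate of the purine pathway. HIS4 rose in MTX by 0.96 (SE 0.18), in DOX by 0.83 (SE 0.18) and in HU by 1.05 (SE 0.18; edgeR adjusted p = 0.00311), and HIS5 rose in MTX by 0.72 (SE 0.17) and in DOX by 0.79 (SE 0.17). These were the 2 of 6 genes called in MTX, while in DOX HIS2 fell by 0.51 (SE 0.14) and HIS6, named after its values were seen, by 0.48 (SE 0.14). Of all genes tested 19.8% were called in MTX and 41.2% in DOX. Of the 3 regulators, BAS1 was at -0.01 (SE 0.25) and PHO2 at 0.45 (SE 0.29) in MTX, neither past the test. GCN4, the activator of amino acid synthesis, rose in MTX by 0.82 (SE 0.16; edgeR adjusted p = 0.0028) and in MMS by 0.79 (SE 0.16; edgeR adjusted p = 0.00431). In DOX and HU edgeR and DESeq2 called no regulator, with 1 (BAS1) and 0 at an unadjusted p under 0.05. RNA levels of these regulators do not measure the activity of their proteins.

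**Figure D5:**
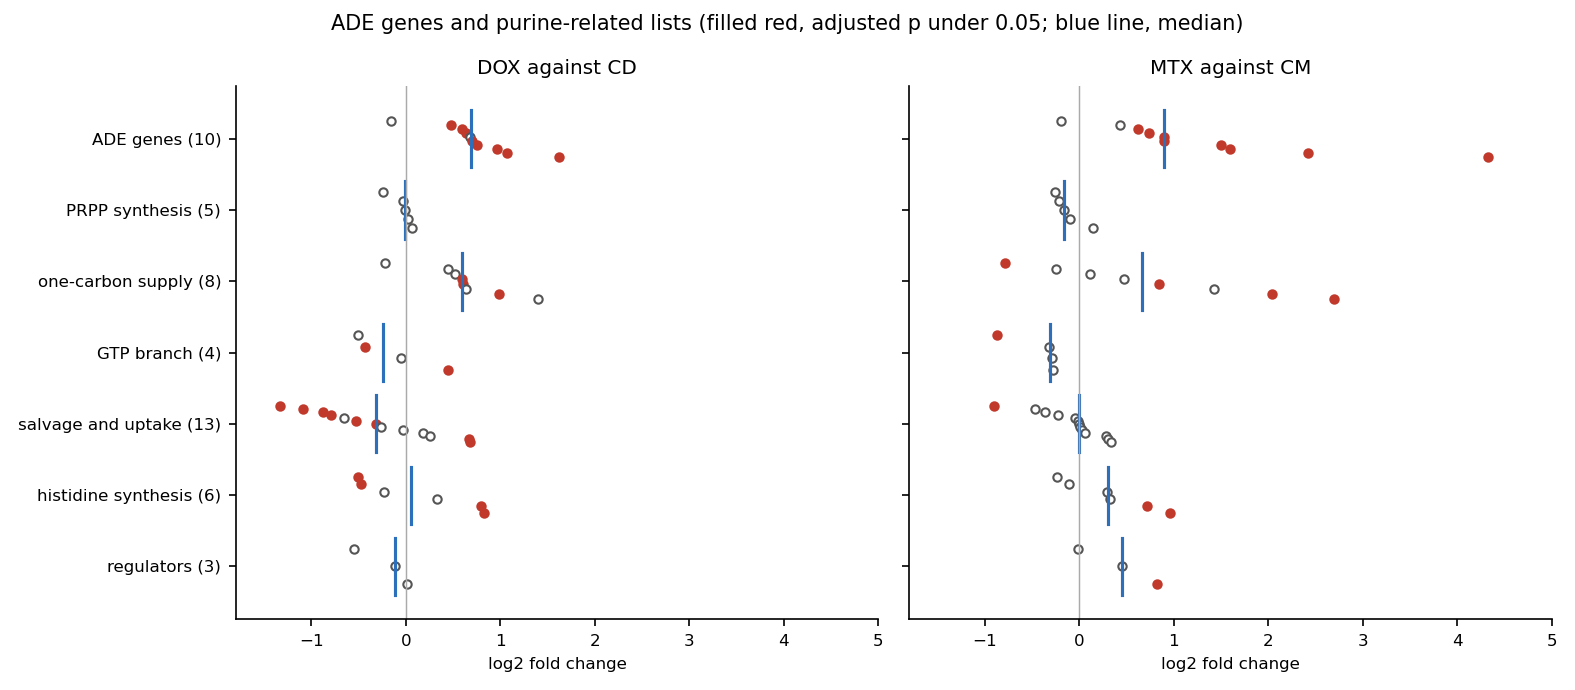
Log2 fold change of each gene of the ADE set and of 6 purine-related lists (number of genes in brackets) in DOX against CD and in MTX against CM, with filled red points for an adjusted p under 0.05 and a blue line at each median. The ADE medians are 0.69 and 0.9, and those of salvage and uptake -0.32 and 0.0.

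Across the 22 cultures the genes whose log CPM was most like the mean profile of the 10 members were ECM15 (Pearson r 0.89), SHM2 (0.89), MTD1 (0.88), URA2 (0.86), WIP1 (0.86), HSH49 (0.85), HIS5 (0.84) and HSP31 (0.84), out of 4691 genes ranked. URA2 encodes the first enzyme of pyrimidine synthesis. Over the 20 cultures without MTX the values were 0.74, 0.7, 0.73, 0.58, 0.7, 0.73, 0.8 and 0.79 in the same order. In MTX itself URA2 rose by 1.56 (SE 0.16) and ECM15 by 1.33 (SE 0.19) on the log2 scale, while HSH49 was at 0.37 (SE 0.13; edgeR adjusted p = 0.0631). The cultures share groups, media and depth, and the values are a description.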

How the data were processed

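The authors counted whole reads per annotated feature with featureCounts 1.6.0 on the sacCer3 build, per the file headers, and the counts were deposited without normalization. The recorded command sets no strand, pair or multiple-overlap option, so reads were counted without regard to strand. Bowtie2 is named in the submitters' processing notes, with its version not given in the sources used here, and the alignment names in the file headers hold the words mskDup and non-redundant. Where duplicate reads were removed, the counts of abundant genes would be lowered more in deeper libraries. The authors' deposited tables of treatment against vehicle hold DESeq2 log2 fold changes and adjusted p-values, and are quoted as such.

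The 2 technical replicates of a culture were added together, which gave 22 cultures, and p-values rest on 2 cultures per group. The title and characteristics of 1 CM library and its description give different technical replicate numbers, and the title was followed. Genes were filtered by filterByExpr (minimum count 10, minimum total 15) in edgeR 4.0.16 (R 4.3.3), scaled by TMM and fitted with 1 mean per group over all cultures, with 11 residual degrees of freedom. Contrasts were tested with the robust quasi-likelihood F test over 6344 genes, with Benjamini-Hochberg adjustment and a threshold of 0.05. An SE is the log2 fold change divided by the root of F. Per-kilobase levels use the tables' lengths, of which 96.6% are multiples of 3, so they are coding lengths. Near-identical copies share at least 95% identity over 30% of the length. Correlations use log CPM with a prior count of 2. Names were matched to RefSeq R64 (6008 of 6692 features, 6000 with the same coordinates).

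All 10 members are named in every treatment comparison or accounted for by count. From each other list the count and up to 3 called genes with the smallest p are named, and the 8 genes most like the members' mean profile by Pearson r. The members and lists were chosen with earlier results of these data known. Alternatives were size factors by RLE, DESeq2 1.42.0, no filter, fits to the compared groups alone, a replicate block and leaving out each culture. The test was also run on simulated counts, with the spread taken from these data and changes set in MTX. There 6144 of the 6344 genes were left unchanged, whereas 19.8% of genes were called in MTX against CM in the data. The simulated rates hold for that setting only. In the simulated MTX against CM the test recovered 25.4% of 1.5-fold, 77.6% of 2-fold and 95.5% of 4-fold changes. Of the 67 genes changed 1.5-fold, 5 had the wrong sign.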

Additional observations from a re-analysis of the deposited data

Results flagged for a closer look

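The members' responses differed between agents in 12 results, each a difference of log2 fold changes against the own vehicles that passed the edgeR test of that difference (adjusted p under 0.05). MTX minus DOX gave 1.35 in ADE1, 0.9 in ADE13, -0.82 in ADE16 and 2.71 in ADE17. MTX minus AD gave 1.18 in ADE5,7, 1.88 in ADE1, 1.15 in ADE13, -0.59 in ADE16 and 4.07 in ADE17. MTX minus HU gave 1.12 in ADE5,7, 1.55 in ADE1 and 1.23 in ADE13. Vehicle and dose differed in all 3 sets, and the medium in MTX minus HU alone. ADE1 and ADE13 were in all 3 sets, and ADE16 had a negative difference in both sets that held it.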

How the results depend on the processing

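Of 32 calls on single members 18 held in every alternative, no called value changed sign, and 66 of 344 recomputed values no longer passed. Of 138 values not called, 61 changed sign in some alternative. Counts of called members that moved by more than 1.5 times are as follows. Leaving out each culture in turn left 0 of 3 in HU every time, gave 0 to 1 in MMS, 0 to 2 in CD against C0 (1 with all cultures) and 7 to 13 over the 7 differences between responses (12). DESeq2 called 1 in MMS and 1 in AD, each 0 by edgeR. With a replicate block the counts were 1 in MMS, 1 in CPT, 4 in AD (ADE4, ADE1, ADE13 and ADE16), 3 in CD against C0 and 22 over the differences. The labels do not say that a number marks a shared batch or day, and the numbers were not taken to pair the cultures over the whole series. Differences between cultures 1 and 2 correlated between treatment and vehicle unevenly, by 0.34 in HU, 0.06 in MMS, 0.49 in CPT, 0.71 in AD, 0.16 in DOX and -0.24 in MTX. A crossed replicate block in MTX, added after seeing the data, called 9 members, as did the block as numbered. Calls over all genes with either block are not given here, so the members' counts with a block stand without that share. The cause of these shifts was not tested, except that leaving out a culture leaves 1 in its group, assumed to vary like the others. RLE factors moved no median by over 0.1.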
